A study of Mus musculus with 28 samples.

Results

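Transcripts of 7 CC chemokines that draw monocytes and eosinophils into tissue (Ccl2, Ccl6, Ccl7, Ccl8, Ccl9, Ccl12 and Ccl24) were followed in macrophages of the mouse pancreas during caerulein pancreatitis and its recovery. They were picked by symbol as genes of this function, with earlier results of these data already known. All 7 were found among the 25301 genes of the deposited expression table, and all 7 were among the 11960 genes with enough signal to be tested. The 28 RNA-seq libraries came from cells sorted by flow cytometry from wild-type C57BL/6J mice. Caerulein, a cholecystokinin analogue that overstimulates the acinar cells, was used to induce acute pancreatitis (AP in the labels). There were 3 libraries of NC and 5 of D0. Mice given PBS supplied 6 libraries at day 1 (D1 AP+PBS) and 4 at day 3 (D3 AP+PBS), and mice given lactate supplied 6 (D1 AP+Lac) and 4 (D3 AP+Lac). D gives the day after induction, and PBS is the saline given in place of lactate. The labels do not spell out NC, which is kept here as a name, and the sources used here give no age, lactate route or dose, or sorting gate. Whether each library is a separate animal is not given either, so the p-values measure the spread between libraries.

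CC chemokines are small secreted proteins that bind G protein-coupled receptors on leukocytes and guide their migration. Ccl2, Ccl7, Ccl8 and Ccl12 encode the monocyte chemoattractant proteins. Ccl2, Ccl7 and Ccl12 signal through CCR2, the receptor by which inflammatory monocytes leave the bone marrow and enter injured tissue. Ccl6 and Ccl9 encode a closely related pair of mouse chemokines that act through CCR1 and are made abundantly by myeloid cells. Ccl24 encodes an eotaxin, a ligand of the eosinophil receptor CCR3, and is known as a gene that interleukin-4 raises in alternatively activated macrophages. In the inflamed pancreas, macrophages are a known source of such chemokines.

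Of the 7 genes, 6 lie in the chemokine cluster of chromosome 11 in RefSeq's gene order. Ccl2 and Ccl7 are direct neighbours there, Ccl12 and Ccl8 are direct neighbours, and Ccl9 and Ccl6 are direct neighbours between Ccl5 and Ccl3. Ccl24 lies on chromosome 5 beside Ccl26. The RefSeq table of promoters (GRCm38.p6) held 4 of the 7, which form neighbouring pairs. Over the 28 libraries Pearson's r of the levels was 0.98 for Ccl6 with Ccl9 and -0.15 for Ccl12 with Ccl8. For deviations from the group means it was 0.98 and 0.54 in the same order, so within groups both pairs moved together, the second less closely. To set these pairs side by side, the 250 bases before the start of each gene are shown. They lie at chr11:83593088-83593337 (minus strand, Ccl6), chr11:83578637-83578886 (minus strand, Ccl9), chr11:82101595-82101844 (plus strand, Ccl12) and chr11:82114935-82115184 (plus strand, Ccl8). Each is written in the direction of its gene and ends at the base before the start. Capitals mark matches to the motifs searched or, in Ccl6, which held none, both copies of its longest repeat.
Ccl6: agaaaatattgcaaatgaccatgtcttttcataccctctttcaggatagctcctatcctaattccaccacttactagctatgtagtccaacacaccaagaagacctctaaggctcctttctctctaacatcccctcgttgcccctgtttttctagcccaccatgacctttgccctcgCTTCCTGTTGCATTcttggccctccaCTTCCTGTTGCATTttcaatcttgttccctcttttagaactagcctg
Ccl9: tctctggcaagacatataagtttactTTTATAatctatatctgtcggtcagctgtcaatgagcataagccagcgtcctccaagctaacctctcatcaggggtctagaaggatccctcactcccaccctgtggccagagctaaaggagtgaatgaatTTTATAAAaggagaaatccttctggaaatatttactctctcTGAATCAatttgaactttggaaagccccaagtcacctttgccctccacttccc
Ccl12: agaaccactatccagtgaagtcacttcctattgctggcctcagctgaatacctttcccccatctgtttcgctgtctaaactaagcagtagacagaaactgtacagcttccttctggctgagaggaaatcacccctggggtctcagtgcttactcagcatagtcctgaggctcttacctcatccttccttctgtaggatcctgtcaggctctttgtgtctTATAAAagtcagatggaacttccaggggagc
Ccl8: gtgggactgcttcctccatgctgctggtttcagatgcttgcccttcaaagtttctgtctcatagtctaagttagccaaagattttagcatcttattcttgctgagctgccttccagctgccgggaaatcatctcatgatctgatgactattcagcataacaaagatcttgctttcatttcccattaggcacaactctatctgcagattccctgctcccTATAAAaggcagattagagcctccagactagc

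The 4 stretches were searched on both strands for the letters of an NF-kB site (GGGANTTNCC), an AP-1 site (TGANTCA), a STAT6 site (TTCNNNNGAA), a STAT site (TTCNNNGAA) and an interferon-stimulated response element (TTTCNNTTTC). Only Ccl9 held a match, an AP-1 site (TGAATCA) from base -53 to base -47 counted from the start. Over 32817 stretches of the same length in the table, the AP-1 letters occurred in 6.75%, the NF-kB letters in 0.981%, the STAT6 letters in 5.85%, the STAT letters in 7.02% and the interferon element in 2.97%. A TATA box (TATAAA), searched for after the sequences had been read, began at base -31 in Ccl12 and at base -32 in Ccl8, and it occurred in 12.4% of all stretches. In Ccl9 the same letters began at base -92, overlapping a match on the opposite strand, and a further match on the opposite strand lay at base -224. The longest repeat of Ccl6, CTTCCTGTTGCATT, is 14 bases long and begins at bases -73 and -47, and Ccl6 and Ccl9 share a run of 13 bases, GCCCTCCACTTCC. Between the annotated transcripts of the 7 genes, the longest identical run was 25 bases for Ccl6 with Ccl9, 23 bases for Ccl2 with Ccl7 and at most 17 bases for any other pair.

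Levels are FPKM (fragments per kilobase, scaled to what mapped in the library), so they can be compared between genes per length. Library depth, recovered from the values, ran from 33273303 to 41060490 fragments. The lowest count of any member in any library was 82 fragments (Ccl24), and the highest was 142210 (Ccl6), so counting error was small beside the spread between libraries. The macrophage markers Lyz2 and Adgre1 were high throughout: the mean Lyz2 level was 6208 to 11570 FPKM over the 6 groups, and mean Adgre1, which encodes F4/80, was 142 to 364 FPKM. Markers of other cells were present too. The summed level of 13 acinar genes was 325 to 617 FPKM in D0, 5105 to 8337 in NC and 1942 to 14450 in D3 AP+PBS. The summed level of the 12 macrophage markers was 15590 to 17110 FPKM in NC, 11880 to 13070 in D0 and 12590 to 20840 in D1 AP+PBS. It was 7513 to 15900 in D1 AP+Lac, 7538 to 11620 in D3 AP+PBS and 8403 to 13890 in D3 AP+Lac. All values come from bulk samples, in which fewer cells of a type and less RNA per cell cannot be told apart.

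Averaged over the 28 libraries, Ccl6 was the most abundant member at 932 FPKM, rank 56 of all genes in the table. Ccl2 followed at 405 FPKM (rank 154), then Ccl9 at 334 (rank 185), Ccl7 at 233 (rank 259), Ccl12 at 118 (rank 522) and Ccl8 at 102 (rank 622). Ccl24 averaged 11.5 FPKM (rank 5018). Together the 7 took 0.450% ± 0.0499 (SD, n = 3) of the summed FPKM of a library in NC and 1.31% ± 0.144 (n = 5) in D0. Their share was 0.404% ± 0.105 (n = 6) in D1 AP+PBS, 0.331% ± 0.0983 (n = 6) in D1 AP+Lac, 0.220% ± 0.0751 (n = 4) in D3 AP+PBS and 0.312% ± 0.170 (n = 4) in D3 AP+Lac. Every D0 library, at 1.06% or above, lay over every other library, the highest of which reached 0.563%.

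**Figure D1:**
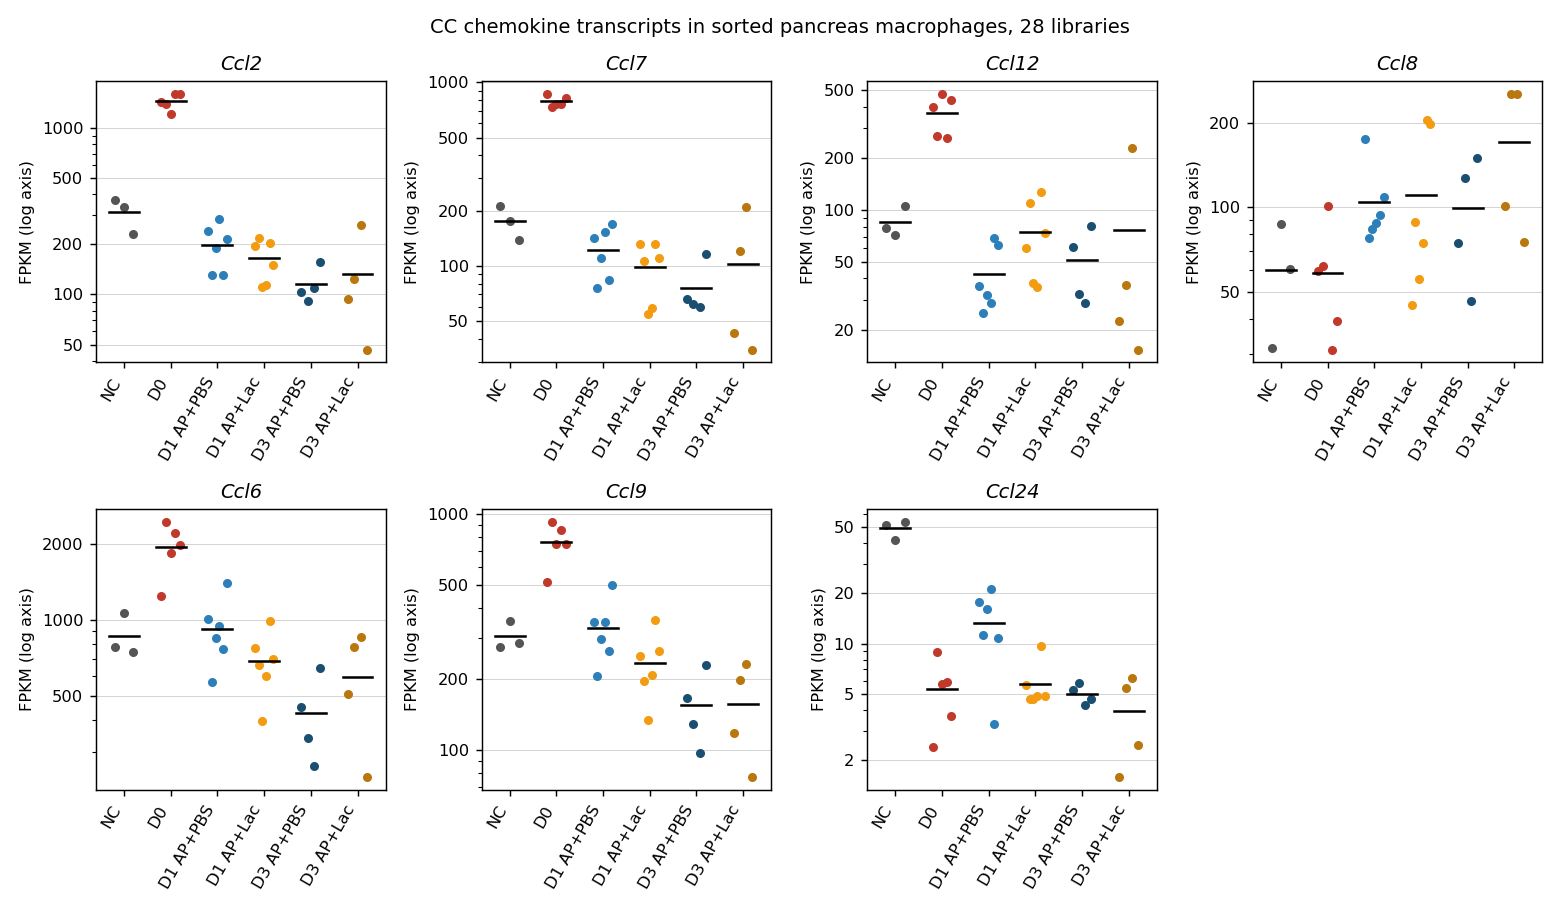
FPKM of the 7 chemokine genes on a log axis, 1 point per library in each of the 6 groups, with a black line at the group mean. The D0 libraries stand above every other library for Ccl2, Ccl7, Ccl12 and Ccl9 and, apart from D0 library 1, for Ccl6, while Ccl24 is highest in the 3 NC libraries and Ccl8 shows no such peak.

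At day 0, the monocyte attractants Ccl2, Ccl7 and Ccl12 and the CCR1 ligands Ccl6 and Ccl9 were higher than in NC, Ccl24 was lower, and Ccl8 did not pass the test. That is 5 members higher and 1 lower of 7, in a comparison in which 61.1% of all tested genes were called (19.7% higher, 41.4% lower; limma on log2(FPKM + 1), Benjamini-Hochberg adjusted p under 0.05). The median difference of the 7 was 1.30 on the log2 scale, against -0.22 over all tested genes. Scaling moved the split of all genes, from 2361 higher and 4948 lower to 3597 and 3858 with median-ratio scaling and 3558 and 2755 with quantile normalization (shifts of the median of all genes by 0.18 and 0.27), and the members kept 5 higher and 1 lower under both. This comparison shares its D0 libraries with the comparison of day 1 and day 0, so the values of the next comparison are not an independent repeat.

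Ccl2, the main ligand of CCR2, stood at 368, 334 and 231 FPKM in the 3 NC libraries and at 1439, 1402, 1208, 1597 and 1603 FPKM in the 5 D0 libraries. Every D0 library lay far above every NC library. Mean Ccl2 was 4.66-fold higher in D0 (1450 ± 163 against 311 ± 71.3 FPKM), a difference of 2.24 in log2(FPKM + 1) with SE 0.36 and an adjusted p of 9.4e-06. Ccl7, its neighbour and a further CCR2 ligand, stood at 138 to 213 FPKM in NC and at 730 to 865 in D0, a difference of 2.18 (SE 0.41, adjusted p = 8.5e-05). Ccl12, a CCR2 ligand of rodents, was at 78.2, 71.1 and 105 FPKM in NC and at 396, 271, 475, 262 and 436 in D0. Its groups did not overlap either, and the difference was 2.08 (SE 0.58, adjusted p = 0.0032).

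Ccl6 and Ccl9, the CCR1 ligands, rose less. Ccl6 stood at 779, 1067 and 747 FPKM in NC and at 1250, 2457, 1851, 2221 and 1985 in D0, 2.26-fold higher on average (log2 difference 1.16, SE 0.35, adjusted p = 0.0065). D0 library 1 was the lowest of its group for Ccl6 and the highest for Ccl7, with 865 FPKM. Ccl9 went from 304 ± 43.3 FPKM (n = 3) to 761 ± 158 (n = 5), 2.50-fold, with no overlap between the groups (1.30, SE 0.33, adjusted p = 0.0016).

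Ccl24, the eotaxin, moved the other way. It stood at 51.2, 41.7 and 53.8 FPKM in NC and at 2.39, 8.92, 5.69, 5.92 and 3.70 in D0. No D0 library came near the NC range, and the mean fell from 48.9 ± 6.35 to 5.32 ± 2.48 FPKM, 9.18-fold lower (-3.07, SE 0.40, adjusted p = 5.1e-07). Ccl8 stood at 31.5, 87.4 and 60.4 FPKM in NC and at 59.4, 61.8, 101, 31.1 and 39.5 in D0, ranges that overlap almost wholly. Its difference was -0.03 with a 95% confidence interval of -1.07 to 1.01 (adjusted p = 0.97), which includes changes in either direction. Groups whose libraries did not overlap were found for 6 of the 7 members and for 68.3% of all tested genes.

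**Figure D2:**
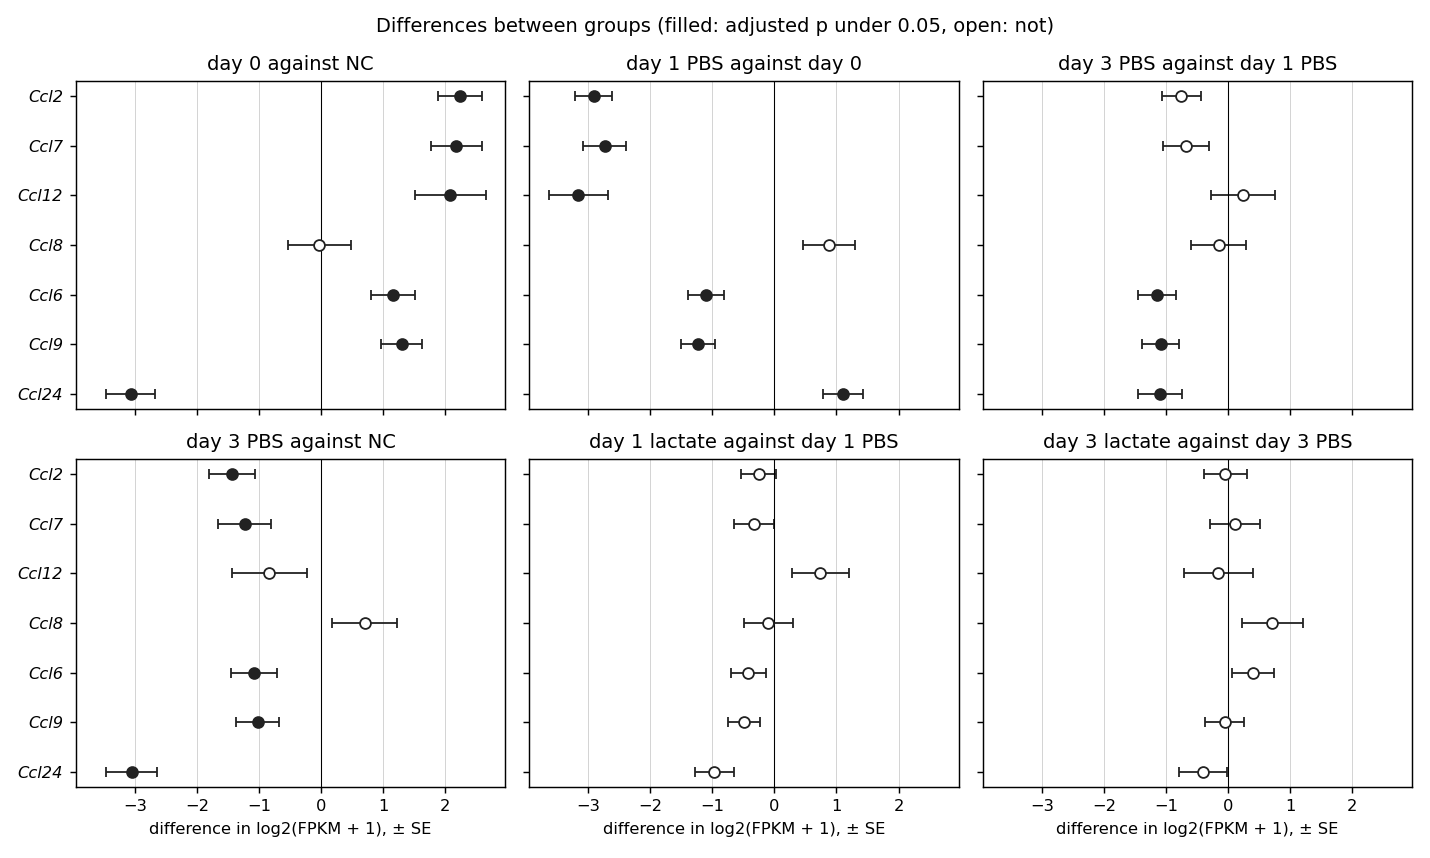
Difference in log2(FPKM + 1) of each member with its SE, in 6 comparisons; filled points passed an adjusted p of 0.05 and open points did not. At day 0 the points run from 2.24 (Ccl2) to -3.07 (Ccl24), in day 1 PBS against day 0, which shares the D0 libraries, they run from 1.11 (Ccl24) to -3.16 (Ccl12), and no point is filled in the comparisons of lactate with PBS.

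Levels of other cell types moved with these differences. The mean log2(FPKM + 1) of 12 dendritic cell markers was 2.54 to 2.84 in D0 and 3.59 to 5.01 in all other libraries, and that of 11 B and plasma cell markers was 1.35 to 2.52 in D0 and 3.90 or more elsewhere. Since neither range overlaps, these levels and the day cannot be told apart. With the dendritic marker level as a covariate 0 of the 7 members passed in this comparison and the SE of Ccl2 rose to 1.17. With the acinar level as a covariate Ccl2 and Ccl24 passed. With the joint level of B, plasma, T and NK cell markers (1.09 to 2.25 in D0, 3.83 or more elsewhere) 3 passed, namely Ccl2, Ccl24 and, as a gained call, Ccl8 at -2.22 (adjusted p = 0.0021). Of 14 monocyte markers, 8 were higher and 4 lower in D0, where 19.7% of all genes were higher and 41.4% lower. Of 12 macrophage markers 3 rose and 3 fell: Itgam (1.99), Fcgr1 (2.99) and Cd68 (1.23) rose, and Csf1r (-1.26), C1qa (-1.28) and C1qc (-1.29) fell.

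The receptors of these ligands were measured in the same cells. Ccr1, which binds the products of Ccl6 and Ccl9, stood at 23.9, 44.0 and 35.9 FPKM in NC and at 185, 243, 211, 258 and 222 in D0, a difference of 2.69 (SE 0.37, adjusted p = 1.1e-06). Ccr2, the monocyte receptor, stood at 135, 227 and 148 FPKM in NC and at 363 to 486 in D0 (1.38, SE 0.23, adjusted p = 1.9e-05). Neither receptor had overlapping groups, and 68.3% of all tested genes had none either. Ccr3, the eosinophil receptor and the receptor of CCL24, stayed between 0.0908 and 0.874 FPKM over all 28 libraries and was too low to be tested. Of 13 CC chemokine receptors listed 10 were tested, with 2 higher and 6 lower at day 0 (19.7% and 41.4% of all genes), and Ccr6, found on B cells and some T cells, fell most (-2.70, adjusted p = 9.3e-05).

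**Figure D3:**
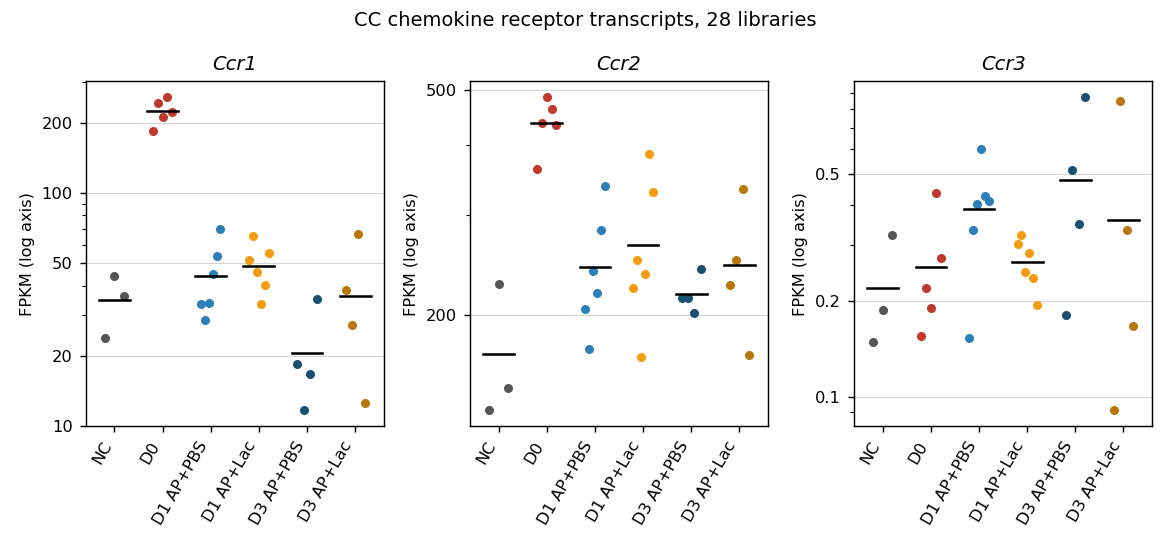
FPKM of Ccr1, Ccr2 and Ccr3 on a log axis, 1 point per library in the 6 groups, with a black line at the group mean. Ccr1 is highest in the 5 D0 libraries, the lowest D0 value of Ccr2 (363) lies under 1 D1 AP+Lac library (385), and Ccr3 lies under 1 FPKM in all 28.

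Markers of eosinophils, the cells that Ccl24 attracts, were near the floor. Epx, the eosinophil peroxidase gene, was listed at 0 in every library outside D3 AP+PBS, where the highest value was 0.0320 FPKM. Siglecf lay between 0.243 and 1.74 FPKM and Prg2, the major basic protein gene, between 0 and 4.72. Of 11 eosinophil markers 6 were tested, and Ear2, which mouse macrophages express as well, was the most abundant at 235 FPKM in NC and 24.5 in D0 (-3.22, adjusted p = 9.0e-10). The summed level of the 11 was 209 to 295 FPKM in NC, 21.3 to 37.6 in D0 and 13.1 to 88.0 in the other groups.

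By day 1 with PBS, the chemokines that had been high at day 0 were low again. Ccl2, Ccl7, Ccl12, Ccl6 and Ccl9 fell, Ccl24 rose, and Ccl8 missed the threshold, which is 1 member higher and 5 lower where 62.9% of all genes were called (43.0% higher, 19.8% lower). The median of the 7 was -1.24, against 0.19 over all genes. All genes split into 5147 higher and 2374 lower, into 3918 and 3808 with median-ratio scaling and into 2835 and 3666 with quantile normalization, while the members kept 1 higher and 5 lower under both.

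Ccl12 had the largest difference of the 7. From 262 to 475 FPKM in D0 it went to 24.9 at the lowest, 34.0 at the median and 68.9 at the highest of the 6 D1 AP+PBS libraries, a difference of -3.16 (SE 0.48, adjusted p = 4.7e-06). Libraries 5 and 6 of D1 AP+PBS, at 68.9 and 62.9 FPKM, stood above the other 4, which lay between 24.9 and 36.0. Ccl2 stood at 130 at the lowest, 203 at the median and 282 FPKM at the highest in D1 AP+PBS (-2.91, SE 0.29, adjusted p = 1.2e-08). Ccl7 stood at 76.0, 126 and 169 FPKM in the same order (-2.74, SE 0.34, adjusted p = 3.4e-07). For these 3 CCR2 ligands no D1 AP+PBS library reached the range of D0.

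Ccl6 had 569, 895 and 1396 FPKM as its lowest, median and highest values in D1 AP+PBS (-1.10, SE 0.29, adjusted p = 0.0022), so library 6, the highest, lay above the lowest D0 library, at 1250. Ccl9 had 206, 323 and 504 FPKM (-1.24, SE 0.27, adjusted p = 0.00043) and kept just below the D0 range, which began at 515. Ccl24 rose to 3.28 at the lowest, 13.6 at the median and 21.1 FPKM at the highest (1.11, SE 0.33, adjusted p = 0.0055), still below every NC library. Library 5, at 3.28, was the only D1 AP+PBS library inside the range of D0. Ccl8 had 78.0, 90.8 and 174 FPKM (0.88, SE 0.42, adjusted p = 0.069), and without D0 library 3, the highest of its group, its adjusted p was 0.033. Non-overlapping groups were seen for 4 of 7 members and for 44.2% of all genes.

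Against NC, the D1 AP+PBS libraries differed in 1 member only by the test, Ccl24, at -1.96 (SE 0.38, adjusted p = 0.00073), where 14.5% of all genes were called. For Ccl2 the difference from NC was -0.68 (SE 0.34, adjusted p = 0.21), for Ccl6 0.06 (SE 0.34, adjusted p = 0.94) and for Ccl9 0.07 (SE 0.32, adjusted p = 0.93). Ccl12 had the largest difference that missed the threshold, -1.07 (SE 0.56, adjusted p = 0.22), and Ccl8 was at 0.85 and Ccl7 at -0.56. With the dendritic marker level as a covariate 0 members passed between day 1 and day 0, and with the level of B, plasma, T and NK markers 3 passed: Ccl2, Ccl24 and, as a gained call, Ccl8 at 3.38 (adjusted p = 4.3e-05). In that fit Ccl6 was at 0.12 and Ccl9 at 0.16.

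From day 1 to day 3 with PBS, Ccl6, Ccl9 and Ccl24 fell, and the others did not pass. The count was 0 higher and 3 lower of 7, where 34.3% of all genes were called (21.5% higher, 12.8% lower), with a median of -0.75 against 0.10 over all genes. The 2569 genes higher and 1534 lower became 1862 and 2020 with median-ratio scaling and 1771 and 2185 with quantile normalization, and the members' count did not move. Ccl6 stood at 453, 339, 264 and 647 FPKM in D3 AP+PBS (-1.14, SE 0.31, adjusted p = 0.0074). Ccl9 stood at 167, 130, 96.9 and 231 FPKM (-1.09, SE 0.29, adjusted p = 0.0067). Library 4 was the highest and library 3 the lowest for both of these genes. Ccl24 stood at 5.28, 5.80, 4.29 and 4.65 FPKM, a narrow range that lay above only library 5 of D1 AP+PBS (-1.09, SE 0.35, adjusted p = 0.019). Without D1 AP+PBS library 4 its adjusted p was 0.053, and without D3 AP+PBS library 3 it was 0.051.

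Ccl2 stood at 103, 90.9, 110 and 156 FPKM in D3 AP+PBS and its difference from day 1 missed the threshold (-0.75, SE 0.31, adjusted p = 0.065). It passed without D1 AP+PBS library 2 (adjusted p = 0.040) or 5 (0.037) or D3 AP+PBS library 4 (0.043). Ccl7 was at 65.7, 62.0, 60.05 and 116 FPKM (-0.68, SE 0.37, adjusted p = 0.15). Ccl12 differed by 0.24 (95% confidence interval -0.81 to 1.29) and Ccl8 by -0.15 (-1.07 to 0.77), intervals that include changes in either direction. No member had groups without overlap, which 15.6% of all genes had.

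By day 3 with PBS, 5 members were below NC: Ccl2, Ccl7, Ccl6, Ccl9 and Ccl24. None was higher, where 21.2% of all genes were called (10.3% higher, 10.9% lower), and the median was -1.08 against 0.09. The split of all genes, 1236 higher and 1299 lower, became 809 and 1593 with median-ratio scaling, with the same count of members. Mean Ccl2 was 115 ± 28.7 FPKM against 311 ± 71.3 in NC, 2.70-fold lower (-1.43, SE 0.37, adjusted p = 0.0081). Ccl24 was 9.77-fold lower, at 5.00 ± 0.67 against 48.9 ± 6.35 FPKM (-3.05, SE 0.41, adjusted p = 9.0e-06). Ccl6 (-1.08, adjusted p = 0.038), Ccl9 (-1.02, adjusted p = 0.037) and Ccl7 (-1.23, adjusted p = 0.044) lay near the threshold. For each of the 5 no D3 AP+PBS library reached the NC range, a separation seen in 36.7% of all genes. The count of 5 fell to 2 when any 1 of the 3 NC libraries, or library 1, 2 or 3 of D3 AP+PBS, was left out.

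Macrophage markers fell over the same interval. Of 12, 11 were lower in D3 AP+PBS than in D1 AP+PBS and 10 were lower than in NC, and their mean level was 7.69 ± 0.32 on the log2 scale at day 3 with PBS against 8.65 ± 0.10 in NC. T and NK cell markers were higher, 13 of 14 against day 1 and 12 of 14 against NC. Of all genes, 12.8% were lower and 21.5% higher against day 1, and 10.9% were lower and 10.3% higher against NC. An added fit, made once the data had been seen, took the macrophage marker level as a covariate. In it 0 members passed between day 3 and day 1 and 2 passed between day 3 and NC. Those 2 were Ccl24 and Ccl8, the latter with a difference of 2.17 (SE 0.52, adjusted p = 0.0097) where the fit without the covariate gave 0.70 (SE 0.53, adjusted p = 0.35).

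Lactate changed no member past the threshold at day 1. In that comparison 9.72% of all genes were called (5.16% higher, 4.56% lower), and the median of the 7 was -0.33 against 0.02. Ccl24 came closest. It stood at 3.28 at the lowest, 13.6 at the median and 21.1 FPKM at the highest of the 6 D1 AP+PBS libraries, and at 4.66, 4.84 and 9.62 FPKM in the same order in D1 AP+Lac. Apart from library 5 of D1 AP+PBS, every PBS library lay above every lactate library. The difference was -0.97 (SE 0.31) with a 95% confidence interval of -1.61 to -0.32 and an adjusted p of 0.0502. Without D1 AP+PBS library 5 it was -1.28 (SE 0.26, adjusted p = 0.00097), and without D1 AP+Lac library 5 it was -1.11 (adjusted p = 0.035). Over the 12 fits that left out 1 of these libraries the adjusted p ran from 0.00097 to 0.16.

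Ccl12 had 35.5, 66.9 and 127 FPKM as its lowest, median and highest values in D1 AP+Lac, against 24.9, 34.0 and 68.9 in D1 AP+PBS (0.74, SE 0.46, adjusted p = 0.33). Ccl2 differed by -0.25 (95% confidence interval -0.83 to 0.33), Ccl7 by -0.33 (-0.999 to 0.35), Ccl6 by -0.42 (-0.99 to 0.15) and Ccl9 by -0.49 (-1.03 to 0.05). Ccl8 differed by -0.10 (-0.92 to 0.72), and its 6 lactate libraries split, with 205 and 197 FPKM in libraries 5 and 6 and 44.9 to 88.8 in the other 4. Groups without overlap were seen for 0 members and 0.410% of all genes.

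At day 3, lactate again changed no member past the threshold, and 0.376% of all genes were called (0.192% higher, 0.184% lower). The 4 D3 AP+Lac libraries were widely spread. Ccl2 stood at 93.8, 124, 263 and 46.6 FPKM, Ccl7 at 43.1, 121, 211 and 35.0, and Ccl12 at 22.5, 36.7, 229 and 15.3. Library 3 was the highest for each of these CCR2 ligands, and library 4 had the lowest level of all 28 libraries for Ccl2, Ccl6, Ccl7, Ccl9 and Ccl12. The macrophage marker level was highest in library 3 (8.48) and lowest in library 4 (7.61) of this group, and the B and plasma cell level was lowest in library 3 (5.70) and highest in library 4 (7.11). What part these played was not tested.

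The day 3 differences between lactate and PBS were -0.04 for Ccl2 (95% confidence interval -0.75 to 0.67), 0.11 for Ccl7 (-0.71 to 0.94), -0.15 for Ccl12 (-1.30 to 1.00) and 0.72 for Ccl8 (-0.29 to 1.72). They were 0.40 for Ccl6 (-0.30 to 1.11), -0.05 for Ccl9 (-0.71 to 0.61) and -0.41 for Ccl24 (-1.20 to 0.38). Ccl8 stood at 101, 253, 253 and 75.5 FPKM in D3 AP+Lac and at 74.5, 127, 46.6 and 149 in D3 AP+PBS. Against day 0 the D3 AP+Lac libraries had Ccl8 higher, at 1.45 (SE 0.46, adjusted p = 0.0082), where 67.0% of all genes were called.

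The change of the lactate effect between the days was tested as an interaction. None of the 7 passed, where 10.7% of all genes did (4.76% higher, 5.94% lower). The largest estimates were -0.89 for Ccl12 (SE 0.72, adjusted p = 0.45), 0.83 for Ccl6 (SE 0.44, adjusted p = 0.23) and 0.82 for Ccl8 (SE 0.63, adjusted p = 0.43). Without D3 AP+Lac library 3, which holds the highest Ccl12 of its group, the Ccl12 estimate was -1.70 (SE 0.54, adjusted p = 0.045).

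In the order of the 6 group means, only the step between D0 and the next group passed the test for Ccl2, Ccl7, Ccl12, Ccl6 and Ccl9. For Ccl24 only the first step, from NC to D1 AP+PBS, passed. Mean Ccl24 then ran from 13.3 FPKM in D1 AP+PBS through 5.71 in D1 AP+Lac, 5.32 in D0 and 5.00 in D3 AP+PBS to 3.92 in D3 AP+Lac, with no later step past the threshold. For Ccl8 no step passed, from 171 ± 95.6 FPKM in D3 AP+Lac and 111 ± 71.4 in D1 AP+Lac down to 58.6 ± 27.1 in D0. A step missing the threshold does not show equal levels. Some steps set other pairs of groups side by side, with these shares of all genes called: 21.1% for D1 AP+Lac against NC, 63.1% for D1 AP+Lac against D0, 67.8% for D3 AP+PBS against D0, 4.31% for D3 AP+PBS against D1 AP+Lac, 13.7% for D3 AP+Lac against NC, 28.7% for D3 AP+Lac against D1 AP+PBS and 4.62% for D3 AP+Lac against D1 AP+Lac.

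The members differed in how closely they varied together between libraries. Deviations from the group means in log2(FPKM + 1) correlated at r = 0.98 for Ccl6 with Ccl9 and at r = 0.91 for Ccl2 with Ccl7, over 28 libraries that share depth scaling and cell content within each library. For Ccl12 with its neighbour Ccl8 this r was 0.54, for Ccl12 with Ccl24 it was 0.12, and the other pairs lay between. The ratio of Ccl9 to Ccl6 stayed between 0.231 and 0.412 in all 28 libraries, a coefficient of variation of 12.1%, while Ccl6 itself varied 10.4-fold. It was lowest in D3 AP+Lac, at 0.270 ± 0.0392 (n = 4), against 0.368 ± 0.0105 (n = 4) in D3 AP+PBS. The ratios were not tested, and between these groups neither Ccl6 (adjusted p = 0.55 in limma) nor Ccl9 (0.95) passed. The ratio of Ccl7 to Ccl2 ran from 0.459 to 0.975. The ratio of Ccl8 to Ccl12 went from 0.160 ± 0.0592 in D0 (n = 5) to 2.79 ± 1.23 in D1 AP+PBS (n = 6) and 4.36 ± 2.41 in D3 AP+Lac (n = 4).

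**Figure D4:**
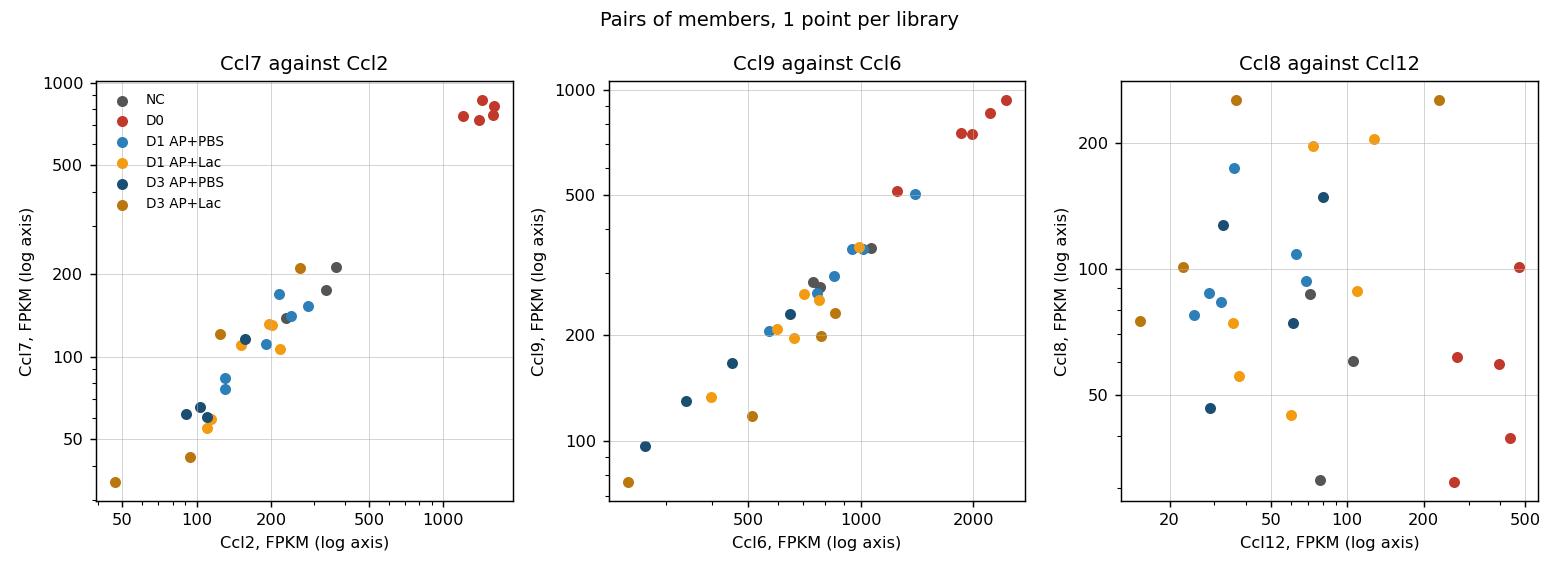
FPKM of Ccl7 against Ccl2, Ccl9 against Ccl6 and Ccl8 against Ccl12 on log axes, 1 point per library, coloured by group. Over the 28 libraries r of log2(FPKM + 1) is 0.98 for the first and the second pair and -0.15 for Ccl8 with Ccl12. The r of deviations from group means is 0.91, 0.98 and 0.54 in the same order. For Ccl8 and Ccl12 the D0 libraries lie at high Ccl12 and low Ccl8.

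The make-up of the summed signal changed as well. Ccl2, Ccl7 and Ccl12 made up 27.1%, 14.8% and 6.98% of the summed FPKM of the 7 in D0, and 11.6%, 7.03% and 2.52% in D1 AP+PBS. Ccl6 was the largest part in every group, from 35.9% in D0 to 53.1% in D1 AP+PBS. Ccl8 took 1.11% ± 0.561 in D0 (n = 5) and 14.0% ± 2.48 in D3 AP+Lac (n = 4), and Ccl24 2.71% ± 0.692 in NC (n = 3) and 0.0968% ± 0.0394 in D0.

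**Figure D5:**
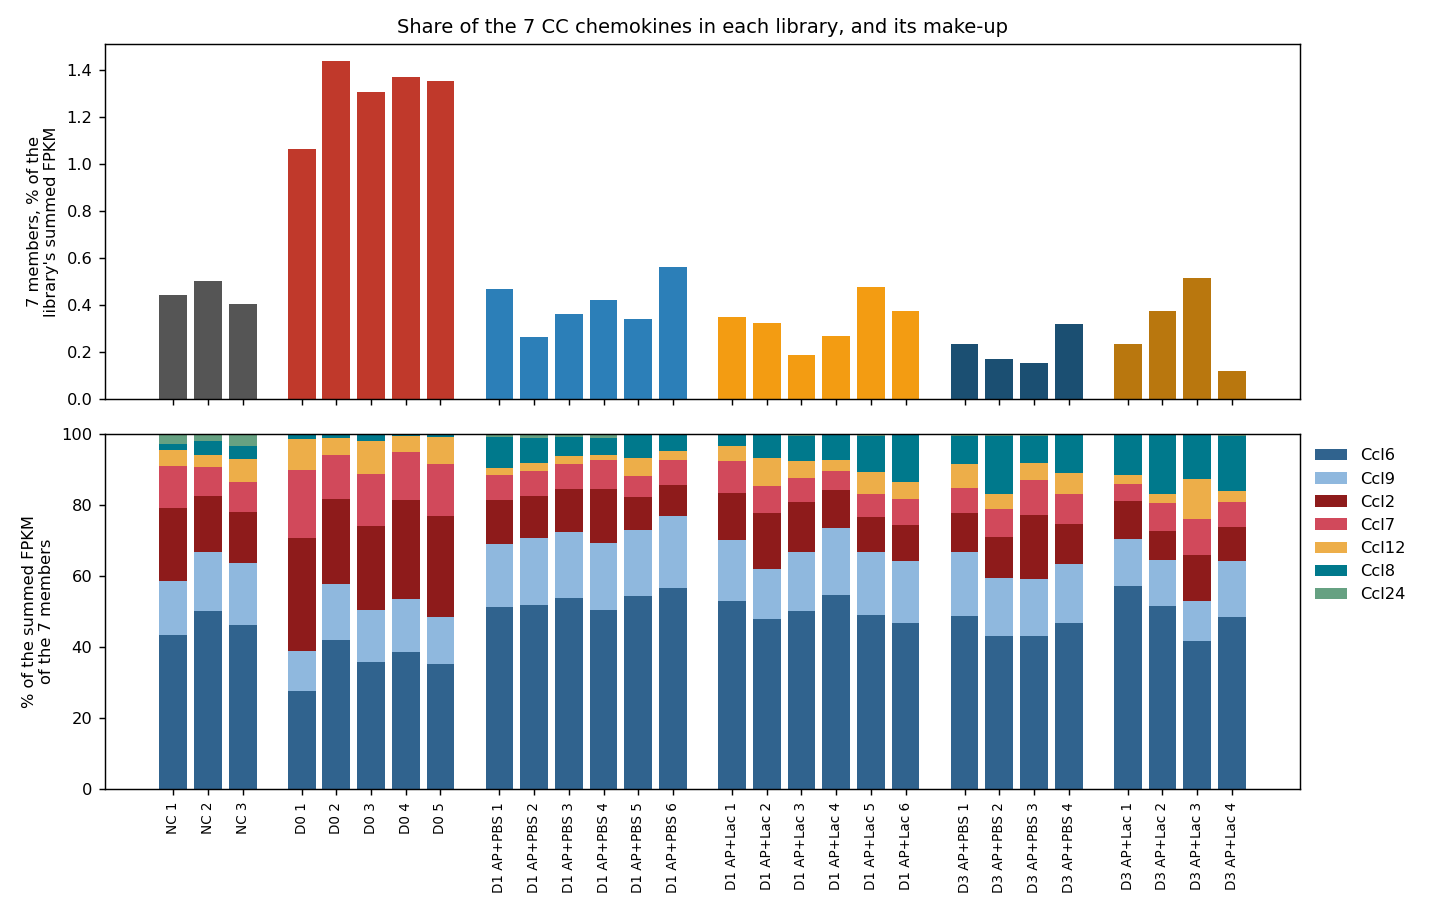
Upper bars show the 7 members as a percentage of the summed FPKM of each of the 28 libraries, and lower bars show what each member contributes to that sum, in percent. The 5 D0 libraries reach 1.06% to 1.44%, against at most 0.563% elsewhere, and the mean part of Ccl8 is largest in D3 AP+Lac, at 14.0%.

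The genes outside the set whose log2 levels were most like a member's over the 28 libraries were found by Pearson's r, with the r of deviations from group means beside it. For Ccl2 they were Adora2b, an adenosine receptor gene (0.98 and 0.82), Pitpna (0.97 and 0.81) and Ralb (0.95 and 0.71), and the same 3 came out for Ccl7. For Ccl6 they were Scamp1 (0.94 and 0.82), Alox5ap, which encodes the activating protein of 5-lipoxygenase (0.94 and 0.85), and Ms4a8a (0.94 and 0.89), and for Ccl9 Alox5ap (0.97 and 0.87), Scamp1 (0.96 and 0.85) and Snx6 (0.95 and 0.83). Ccl12 was most like P4ha1 (0.93 and 0.79), and Zeb2os (0.92 and 0.86) also came out for it. Ccl24 was most like Alox5, the gene of 5-lipoxygenase (0.91 and 0.77), Rac3 (0.90 and 0.63) and Cd163, a scavenger receptor gene of resident macrophages (0.90 and 0.81). Ccl8 had no close match, the highest being Scarf1 (0.66 and 0.52), Rhoq (0.64 and 0.75) and Rbm7 (0.63 and 0.56).

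Other CC chemokines were counted beside the members. Of 14 listed, 8 were tested, and at day 0 none was higher and 4 were lower than in NC, where 19.7% of all genes were higher and 41.4% lower: Ccl5, a T cell and NK cell chemokine (-1.96, adjusted p = 0.00032), the eotaxin Ccl11 (-1.44, adjusted p = 0.0073), Ccl27a (-0.999, adjusted p = 0.00016) and Ccl17 (-0.93, adjusted p = 0.044). With median-ratio scaling 3 were lower and with quantile normalization 1, none higher in either. Between day 0 and day 1 with PBS 4 of the 8 rose and none fell, where 43.0% of all genes were higher and 19.8% lower. Ccl5 rose by 1.87 (adjusted p = 7.0e-05), Ccl3 by 0.90 (adjusted p = 0.012), Ccl11 by 1.04 (adjusted p = 0.017) and Ccl27a by 0.55 (adjusted p = 0.0060). This comparison shares the D0 libraries with the one before. By day 3 Ccl22 (1.97, adjusted p = 0.0050) and Ccl17 (1.42, adjusted p = 0.0038), ligands of CCR4, had risen over day 1, where 21.5% of all genes were higher. With lactate at day 1, Ccl5 was higher (1.10, adjusted p = 0.036) and Ccl3, a neighbour of Ccl6, was lower (-0.98, adjusted p = 0.032). Over all genes 5.16% were higher and 4.56% lower there. No gene was called in that comparison with only the compared groups in the fit, or with the dendritic or macrophage marker level as a covariate.

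Genes of the signalling pathways whose sites were searched for above were counted in the same fits. In these, 19.7% of all genes were higher and 41.4% lower at day 0. Whether these pathways act on the members was not tested. Of 20 NF-kB and AP-1 genes tested, 1 was higher and 15 were lower at day 0 than in NC, with a median of -0.56 against -0.22 over all genes, and Jund (-1.73, adjusted p = 6.5e-09), Jun (-1.27, adjusted p = 6.3e-06), Relb (-1.42, adjusted p = 1.6e-05) and Fosb (-1.60, adjusted p = 0.00042) had the smallest p. Of 16 genes of the interleukin-4 receptor and STAT6 pathway, 4 were higher and 7 lower, with a median of -0.23 against -0.22 over all genes. Among those with the smallest p, Il4ra, the receptor subunit, rose (2.39, adjusted p = 4.7e-11). The alternative activation genes Mgl2 (-7.08, adjusted p = 1.9e-15) and Retnla (-7.63, adjusted p = 8.1e-14) and the transcription factor gene Irf4 (-3.36, adjusted p = 5.9e-11) fell. Of 14 interferon receptor and response genes tested, 8 rose and 3 fell at day 0, with Irf7 at 2.93 (adjusted p = 0.00071). With median-ratio scaling the counts at day 0 were 3 higher and 7 lower for NF-kB and AP-1, 5 and 7 for STAT6, and 9 and 2 for interferon genes, and with quantile normalization 1 and 13, 4 and 8, and 5 and 4.

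Under lactate at day 1, 9 of the 14 interferon genes were higher and 1 lower, where 5.16% of all genes were higher and 4.56% lower. Among the higher were Jak2, a kinase gene of the pathway (0.79, adjusted p = 0.0089), and Isg15 (2.60, adjusted p = 0.014), while no member passed. In the same comparison 7 of 12 dendritic and 5 of 14 T and NK cell markers were higher and 4 of 12 macrophage markers were lower. No gene of the whole table was called here with only the compared groups in the fit, with the dendritic covariate or with the macrophage covariate. The cause of these differences was not tested. Of the STAT6 genes 2 were higher and 2 lower, with Socs1 at 1.70 (adjusted p = 0.0095) and Mrc1, the mannose receptor gene, at -0.84 (adjusted p = 0.039). Of the NF-kB and AP-1 genes 3 were higher and 5 lower, with Jun at -0.70 (adjusted p = 0.011) and Relb at 0.73 (adjusted p = 0.016). At day 3 none of these genes passed between lactate and PBS.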

How the data were processed

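The authors deposited 1 FPKM table covering all libraries, with the unit in its column names per the file headers. Per the submitters' processing notes, fastp and R 3.2.0 were used. Which aligner, counter and build they used is not given in the sources used here. Per the labels' protocols, libraries were made from total RNA. Libraries were grouped by title, and 0 sample columns were left out. Each gene's deposited FPKM step by the value of a single fragment, which gave fragment counts (100% of values whole at a tolerance of 0.0001). No count test was run on them.

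Tests used limma 3.58.1 (R 4.3.3, trend, robust) on log2(FPKM + 1), a scale that understates changes of low genes. The fit had 1 mean for each of the 6 groups over all 28 libraries, with genes at 1 FPKM or more in at least 3 libraries (11960 genes). P-values are two-sided, Benjamini-Hochberg adjusted over all genes of a comparison, threshold 0.05, and intervals are 95%. The fit was tested on simulated data. Group values are mean FPKM ± SD (Python 3.11.15, pandas 2.3.3). There were 13 alternatives, 1 added later (macrophage markers as a covariate) and 28 fits leaving out 1 library. The members are always named. From each list the text names up to 4 genes with the smallest p in a comparison. The macrophage markers named were chosen after their values were seen. Members, lists and tests were chosen with earlier results of these data known, so counts over lists are descriptions. For each member the 3 genes most like it had a mean of at least 5 FPKM and no gene model symbol. Some genes of these lists are not reported here.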

Additional observations from a re-analysis of the deposited data

Results flagged for a closer look

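In 35 groups of 4 to 6 libraries (7 members in 5 groups), 4 held a library whose distance from its nearest neighbour was large for the range of its group (Dixon's test), where chance flags about 1 in 20. Ccl12 was at 229 FPKM in D3 AP+Lac library 3, and the next library of that group stood at 36.7 FPKM. Ccl7 was at 116 FPKM in D3 AP+PBS library 4, with the next at 65.7 FPKM. Ccl8 was at 174 FPKM in D1 AP+PBS library 1, with the next at 109 FPKM. Ccl24 was at 9.62 FPKM in D1 AP+Lac library 5, with the next at 5.63 FPKM. The 4 values came from 4 different libraries.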

How the results depend on the processing

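FPKM on a log2 scale, 3 to 6 libraries a group and the mix of cells in each sort limit these results, and depth does not. For values of single members, 1114 refits kept their side of the threshold, of which 71, all of values not called, turned sign. A further 69 lost the call with the sign kept and 20 gained it. Another 15 turned the sign of a called value, and these lost the call as well. For counts of calls, 265 stayed within 1.5 times and 83 did not.

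The count of members called at day 3 PBS against NC, 5 in the fit reported, was 2 with no filter on low values, with the level of B, plasma, T and NK cell markers, with that of fibroblast markers and with that of macrophage markers as a covariate, and 1 with that of dendritic cell markers. Leaving out 1 library gave 2 to 5. For lactate at day 1 it was 1 (Ccl24) instead of 0 with a filter of 5 FPKM, quantile normalization, the fibroblast covariate and variance moderation without trend, and 0 to 1 without 1 library. For the interaction it was 1 with the macrophage covariate (Ccl12, -2.18, adjusted p = 0.031) and 0 to 1 without 1 library. At day 0 against NC it was 2, 3 and 0 instead of 6 with the acinar, the B, plasma, T and NK, and the dendritic covariate. At day 1 PBS against day 0 it was 3 and 0 instead of 6 with the latter pair. The calls with the B, plasma, T and NK covariate include Ccl8, not called in the fit reported, at day 0 against NC (-2.22), day 1 PBS against day 0 (3.38) and day 3 PBS against NC (1.98). At day 3 PBS against day 1 PBS it was 1 instead of 3 with the acinar covariate and 0 with the B, plasma, T and NK, the dendritic and the macrophage covariate, and leaving out 1 library gave 2 to 4.

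Signs of called values turned with 3 covariates, and none of the turned values passed the threshold. The lowest adjusted p among them was 0.34 in limma (Ccl6, day 0 against NC, dendritic covariate, SE 1.15). With the dendritic level, day 0 against NC was -0.82 for Ccl2, -1.92 for Ccl6, -1.09 for Ccl7, -1.59 for Ccl9 and -2.30 for Ccl12, day 1 PBS against day 0 was 1.08 for Ccl6 and 0.81 for Ccl9, and day 3 PBS against day 1 PBS was 0.74 for Ccl6, 0.69 for Ccl9 and 0.026 for Ccl24. With the B, plasma, T and NK level, day 1 PBS against day 0 was 0.12 for Ccl6 and 0.16 for Ccl9. With the macrophage level, added after the data had been seen, Ccl9 was 0.042 at day 3 PBS against day 1 PBS, and at day 3 PBS against NC Ccl7 was 0.15 and Ccl9 0.053. The dendritic, the B, plasma, T and NK, and the fibroblast level of D0 overlap those of no other library, so these covariates and day 0 cannot be told apart. The cause of the other changes was not tested.

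Over all genes, the count for lactate at day 3, 45 in the fit reported, was 11 with a pseudocount of 0.1, 104 with no filter, 21 with a filter of 5 FPKM, 213 with quantile normalization, 77 with median-ratio scaling and 8 with only the compared groups. With the acinar, B, plasma, T and NK, neutrophil, fibroblast, dendritic and macrophage covariates it was 654, 389, 27, 425, 3 and 1360, and 0 to 163 without 1 library. For lactate at day 1 it was 616 instead of 1162 with no filter, 0 with only the compared groups, 696 with the neutrophil covariate, 0 with the dendritic and 0 with the macrophage covariate, and 191 to 2380 without 1 library. For the interaction, 1280 became 546 with only the compared groups, 1962, 0 and 2025 with the B, plasma, T and NK, dendritic and macrophage covariates, and 622 to 2262 without 1 library. At day 0 against NC 7309 became 3304 with the acinar and 300 with the dendritic covariate. At day 1 PBS against day 0 7521 became 4771 with the B, plasma, T and NK and 579 with the dendritic covariate. At day 3 PBS against day 1 PBS 4103 became 2204, 0 and 344 with the B, plasma, T and NK, dendritic and macrophage covariates. At day 3 PBS against NC 2535 became 339 with the dendritic and 1138 with the macrophage covariate, and 1188 to 2335 without 1 library.

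Replicate numbers are shared between groups but did not pair the libraries: deviations of libraries with the same number correlated at a mean r of 0.0083 over 59 pairs (-0.57 to 0.61). With the number as a replicate block, 3 members passed at day 3 PBS against NC and 122 genes for lactate at day 3, and no other count moved by over 1.5 times.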
